A study of Mus musculus with 15 samples.

Results

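Hif1a siRNA was added to doxorubicin in hypoxic B16.F10 cells, and 3 libraries of that combined treatment were set against 3 libraries of doxorubicin on its own. The comparison uses 6 of the 15 RNA-seq libraries of the series and the 13025 genes listed for both groups, of 13172 listed for any group. B16.F10 is a mouse melanoma line that forms pigment. All groups were grown at 1% oxygen. The combined group was transfected with 25 nM Hif1a siRNA in lipoplexes and received 0.25 µM doxorubicin 24 h later, for a further 24 h. The doxorubicin group is labelled wild type and carries the drug only, so no siRNA is named for it. The remaining groups, used here only beside the members' values, were Hif1a siRNA, negative control siRNA (NC siRNA) and untreated Control, each with 3 libraries and no drug. Every library is labelled as a separate biological replicate of 1 cell line. Because the doxorubicin libraries name no siRNA, lipoplex delivery and the loss of Hif1a cannot be told apart in this comparison.

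HIF-1 is a transcription factor made of an oxygen-regulated alpha subunit, encoded by Hif1a, and a stable partner, encoded by Arnt. Under low oxygen the alpha subunit escapes prolyl hydroxylation and degradation, and the pair drives genes for glucose uptake, glycolysis, mitophagy and blood vessel growth. Doxorubicin is an anthracycline that traps type II topoisomerases on DNA, which breaks the strands and activates p53.

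The combined libraries held 23825110 to 28734303 reads and the doxorubicin libraries 24840652 to 25392403 reads. Replicate 3 of the combined group stood apart from its group: it lay at 11.2 on the first principal component, against 35.6 and 31.7 for replicates 1 and 2 and -30.3 to -19.9 for the doxorubicin libraries. That component held 60.5% of the variance. Mitochondrial genes took 3.91 to 5.08% of reads in the combined libraries and 3.38 to 4.09% in the doxorubicin libraries. All 8 melanoma markers were listed, and their summed level was 28960 to 35586 CPM (read counts scaled to a common library size) in the combined libraries and 38578 to 44787 CPM in the doxorubicin libraries. Of the markers of other cell types, 2 of 7 for fibroblasts and 1 of 7 for leukocytes were listed, and none of 5 endothelial or 6 epithelial markers. The part of mitochondrial share, marker level or replicate 3 in the results was not tested.

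The siRNA target was low in every combined library. Hif1a (chromosome 12, 73901324 to 73947554, mm10) stood at 13.2, 11.3 and 13.9 CPM in the combined libraries, against 134, 133 and 148 CPM in the doxorubicin libraries. It was 10.8-fold lower, a log2 fold change of -3.44 ± 0.11 (SE; edgeR adjusted p = 8.80e-14). CPM, the usual unit of read share, were scaled by TMM, a factor that evens out differences in library composition.

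Of 12921 genes tested, 4180 passed edgeR's adjusted p threshold of 0.05, or 32.4%. Of these, 2187 (16.9% of genes tested) were higher and 1993 (15.4%) were lower in the combined group. Changes of at least 2-fold were fewer and leaned downwards: 102 genes (0.789%) were higher and 248 (1.92%) lower. Without replicate 3 of the combined group, the counts at 2-fold or more were 150 higher (1.16%) and 486 lower (3.75%). Without replicate 2 of the doxorubicin group, 168 were higher by at least 2-fold. In bulk RNA, fewer cells of a kind and less RNA per cell cannot be told apart.

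Hif1a was not the gene with the largest decrease. G6pdx, which encodes the entry enzyme of the pentose phosphate pathway, stood at 5.90, 8.65 and 10.6 CPM in the combined libraries, against 179, 184 and 187 CPM in the doxorubicin libraries. The groups lay far apart, and the log2 fold change was -4.46 ± 0.16 (edgeR adjusted p = 1.50e-09). Without the drug, its log2 fold change under Hif1a siRNA was -3.17 against NC siRNA and -3.46 against Control. Coro7, a coronin that acts at the Golgi, stood at 12.5, 13.1 and 15.2 CPM in the combined libraries, against 123, 119 and 127 CPM in the doxorubicin libraries. Crtap, which encodes a cartilage-associated protein of the collagen prolyl 3-hydroxylation complex, stood at 11.8, 11.0 and 9.62 CPM, against 88.1, 78.6 and 89.4 CPM with the drug only. Their log2 fold changes were -3.18 ± 0.10 for Coro7 and -2.98 ± 0.11 for Crtap (edgeR adjusted p = 1.25e-13 and 1.20e-12). In both genes every combined library was below every doxorubicin library.

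The other large decreases included surface, mitochondrial and glycolytic genes. Slc25a5, the ADP/ATP carrier of the inner mitochondrial membrane, stood at 149, 151 and 135 CPM in the combined libraries, against 727, 728 and 718 CPM in the doxorubicin libraries. The log2 fold change of Slc25a5 was -2.32 ± 0.08 (edgeR adjusted p = 4.77e-13). Cd302, a C-type lectin receptor, had a log2 fold change of -2.44, Fndc3c1 of -2.43, Pigq, a subunit of the enzyme that starts glycosylphosphatidylinositol anchors, of -2.29, and Mxra8, an adhesion protein, of -1.94. Tmsb10, an actin-binding thymosin, is uncertain: it stood at 96.6, 112 and 294 CPM in the combined libraries, with replicate 3 the highest, against 760, 634 and 747 CPM in the doxorubicin libraries. Its adjusted p by edgeR was 0.0476 at a log2 fold change of -2.09 ± 0.53, and the call was lost when any doxorubicin library, or replicate 1 or 2 of the combined group, was left out.

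Ccl5, a chemokine that draws T cells, rose most of the 12 genes named for large increases. It stood at 10.6, 7.60 and 10.6 CPM in the combined libraries, against 1.23, 1.31 and 1.97 CPM in the doxorubicin libraries. The groups did not overlap, and the log2 fold change was 2.67 ± 0.23 (edgeR adjusted p = 1.32e-07). Ppp1r10, a nuclear regulator of protein phosphatase 1, stood at 142, 115 and 104 CPM, against 34.8, 43.5 and 36.1 CPM with the drug only, a log2 fold change of 1.66 ± 0.12. Trib1, a pseudokinase, rose by 1.71 on the log2 scale, Prickle1, a planar polarity protein, by 1.48, and Axin2, a target and inhibitor of Wnt signalling, by 1.46. The mitochondrial leucine tRNA gene TrnL1 (2.06), Zfp473 (1.67), Klhl18 (1.53), Tepsin (1.51), Id1 (1.50), Mir9-2hg (1.42) and Nrros (1.38) complete the 12 largest log2 increases.

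**Figure D1:**
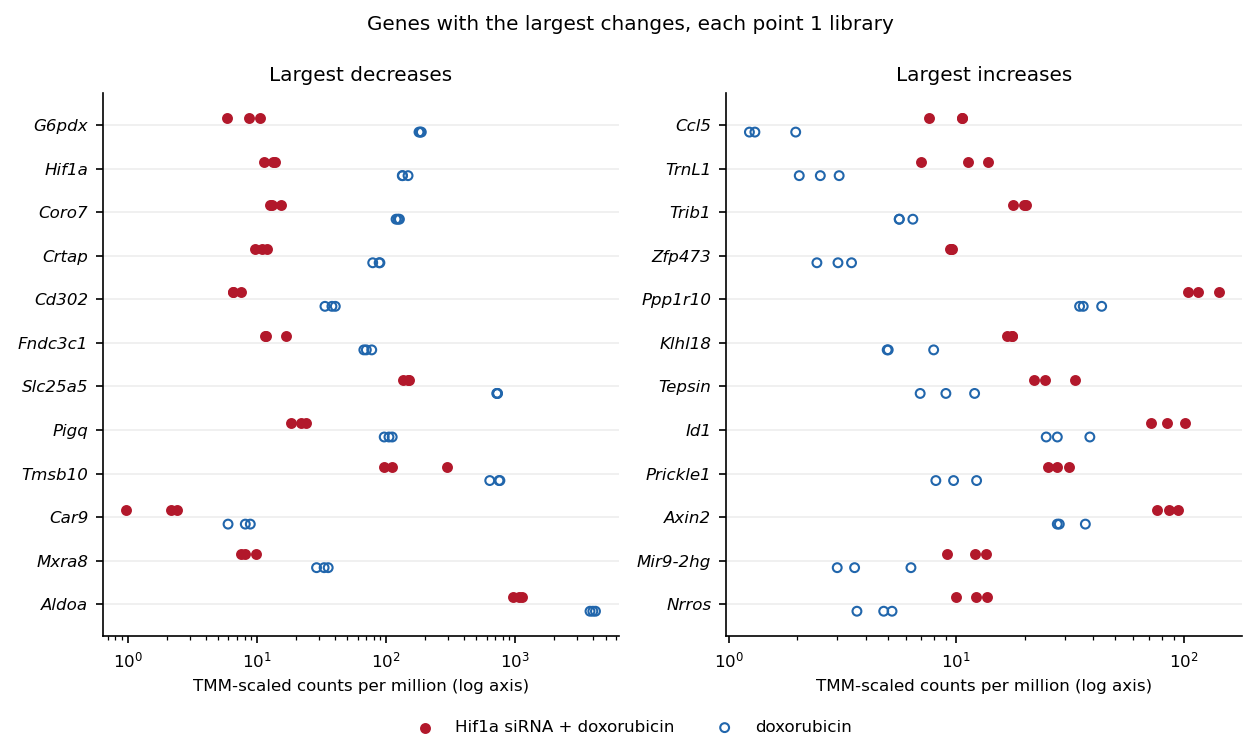
TMM-scaled CPM on a log axis for the 12 genes with the largest decreases (left) and the 12 with the largest increases (right), 1 point per library: filled red, Hif1a siRNA plus doxorubicin; open blue, doxorubicin. The 2 groups do not overlap in any of the 24 genes, which was part of how they were chosen; G6pdx shows the widest gap, and replicate 3 of the combined group is the high red point of Tmsb10.

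Of 11 HIF subunits and regulators, 9 were tested, Hif1a among them. Of these 9, 2 were higher (22.2%, against 16.9% over all genes) and 3 lower (33.3%, against 15.4%). Besides Hif1a, Egln3, an oxygen-sensing prolyl hydroxylase, fell (log2 fold change -0.98 ± 0.24), and so did Vhl, the ubiquitin ligase component that marks the alpha subunit for degradation (-0.42 ± 0.13). Cited2, which competes with HIF for its coactivators, rose to 78.4, 75.6 and 73.6 CPM in the combined libraries, against 43.1, 50.7 and 52.5 CPM in the doxorubicin libraries. Cited2 had a log2 fold change of 0.64 ± 0.10 (edgeR adjusted p = 7.61e-05). Arnt also passed the test at 0.42 ± 0.15. Egln1 did not pass: it stood at 34.9, 36.2 and 30.6 CPM in the combined libraries and at 34.8, 40.5 and 31.9 CPM in the doxorubicin libraries. Epas1, the alpha subunit of HIF-2, had a log2 fold change of 0.12 ± 0.12, Egln2 of 0.23 ± 0.15 and Hif1an, the asparaginyl hydroxylase, of 0.44 ± 0.18, and none passed. The call of Arnt was lost in 8 of 17 alternative runs and that of Vhl in 4 of 17, runs with single libraries left out among them. The count higher was 1 when any single library other than doxorubicin replicate 2 was left out, and with upper-quartile scaling.

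Glycolytic HIF targets fell together. Of 22 such genes, 16 were lower (72.7%, against 15.4% over all genes) and 1 higher (4.55%, against 16.9%). The median log2 fold change was -0.88, against 0.02 over all genes tested. The count lower was 16 without replicate 3 of the combined group as well, where 17.1% of all genes tested were lower and 16.3% higher. Aldoa, fructose-bisphosphate aldolase A, stood at 1069, 1118 and 961 CPM in the combined libraries, against 3985, 3790 and 4178 CPM in the doxorubicin libraries. Ldha, which turns pyruvate into lactate, stood at 438, 492 and 383 CPM, against 1413, 1607 and 1472 CPM with the drug only. The groups were well apart in both, with log2 fold changes of -1.92 ± 0.09 for Aldoa and -1.77 ± 0.10 for Ldha (edgeR adjusted p = 4.66e-11 and 3.87e-10). Pgk1, the phosphoglycerate kinase that forms ATP, fell by 1.50 on the log2 scale, and Pfkl, a phosphofructokinase, by 1.29. Genes chosen after their values were seen showed the same direction: Eno1 had a log2 fold change of -1.35, Gapdh of -1.11, Gpi1 of -1.08 and Tpi1 of -1.06. Aldoa, Eno1, Gapdh and other abundant genes have processed pseudogenes, so their counts are uncertain to the extent that reads were shared. Without the drug, NC siRNA was lower than Control in 13 of the 22 genes and higher in 5, beside 33.7% and 33.1% of all genes. Hif1a siRNA was lower than NC siRNA in 20 and higher in 1, beside 31.2% and 36.4% of all genes. The part of delivery in the fall under doxorubicin cannot be told apart.

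Of the glycolytic list, 5 genes did not pass. Slc2a1, the glucose transporter GLUT1, was at 44.5, 49.0 and 45.6 CPM in the combined libraries and at 39.6, 52.0 and 47.8 CPM in the doxorubicin libraries. Slc16a3, the lactate exporter MCT4, was at 24.3, 20.1 and 21.2 CPM in the combined libraries and at 20.2, 20.5 and 24.3 CPM in the doxorubicin libraries. The groups overlapped in both, with log2 fold changes of -0.00 ± 0.11 and 0.01 ± 0.13. Hk2 (0.21), Pfkfb3 (-0.26) and Gbe1 (-0.18) did not pass either. Pfkfb4, a regulator of fructose 2,6-bisphosphate, was the member that rose (0.76 ± 0.16; edgeR adjusted p = 1.60e-03). These 6 genes are the members that were not lower.

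HIF targets outside glycolysis were split. Of 28 tested, 11 were lower (39.3%, against 15.4% over all genes), 4 were higher and 13 did not pass, with a median log2 fold change of -0.20. Plod1, a collagen lysyl hydroxylase, stood at 117, 120 and 106 CPM in the combined libraries, against 328, 310 and 351 CPM in the doxorubicin libraries. Bnip3l, a mitophagy receptor, stood at 61.7, 66.2 and 65.2 CPM, against 168, 173 and 177 CPM with the drug only. Their log2 fold changes were -1.53 ± 0.08 for Plod1 and -1.43 ± 0.08 for Bnip3l (edgeR adjusted p = 3.48e-10 and 5.03e-10). The mitochondrial genes Fam162a (-0.97) and Higd1a (-0.95) fell by smaller log2 amounts. Car9, a carbonic anhydrase that is a common marker of hypoxia, was low throughout, at 0.971, 2.38 and 2.14 CPM in the combined libraries, against 8.86, 5.96 and 8.10 CPM in the doxorubicin libraries. The 4 members that rose were Ddit4 (0.68), an inhibitor of mTORC1, Bhlhe40 (0.40), Vegfa (0.24) and Ero1a (0.23), named after their values were seen. That count is 14.3% of the list, against 16.9% over all genes, and it was 1 without replicate 1 of the combined group. It was 2 without replicate 2 of that group, without any single doxorubicin library, and with RLE or upper-quartile scaling.

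The promoters of the strongest HIF targets were searched for the core HIF motif, written ACGTG or GCGTG, on both strands. The windows run from 250 bases before to 50 bases after a RefSeq start (GRCm38.p6). By the rule on the smallest adjusted p, the genes were Aldoa, Plod1, Ldha and Bnip3l, and windows matched for Aldoa, Plod1 and Ldha. They are shown because these genes fell together. Capitals mark the motif in either orientation, and CACGTG holds ACGTG on both strands, overlapping. The Aldoa window is chr7:126799205-126799504 on the minus strand, Plod1 chr4:147936727-147937026 on the minus strand and Ldha chr7:46845554-46845853 on the plus strand.
Aldoa: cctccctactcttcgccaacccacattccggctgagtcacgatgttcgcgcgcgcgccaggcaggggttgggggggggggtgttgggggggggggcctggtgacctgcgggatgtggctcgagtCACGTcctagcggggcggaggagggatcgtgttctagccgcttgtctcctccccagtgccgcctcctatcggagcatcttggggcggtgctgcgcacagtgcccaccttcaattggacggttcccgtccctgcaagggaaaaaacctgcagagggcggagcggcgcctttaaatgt
Plod1: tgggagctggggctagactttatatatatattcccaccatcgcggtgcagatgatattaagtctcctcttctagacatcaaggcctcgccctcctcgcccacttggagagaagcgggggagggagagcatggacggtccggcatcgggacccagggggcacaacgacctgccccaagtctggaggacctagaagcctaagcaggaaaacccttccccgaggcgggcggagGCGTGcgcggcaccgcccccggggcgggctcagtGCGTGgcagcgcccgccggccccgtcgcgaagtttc
Ldha: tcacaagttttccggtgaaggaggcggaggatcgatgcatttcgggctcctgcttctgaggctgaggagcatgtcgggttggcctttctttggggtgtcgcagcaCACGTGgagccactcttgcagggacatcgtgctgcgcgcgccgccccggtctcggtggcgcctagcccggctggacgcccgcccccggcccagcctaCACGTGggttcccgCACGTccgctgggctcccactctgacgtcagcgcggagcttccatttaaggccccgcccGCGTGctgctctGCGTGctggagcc

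These windows held 1 match in Aldoa, 2 in Plod1 and 7 in Ldha. Aldoa has 3 such windows, Plod1 1 and Ldha 2, of which 1 per gene is shown. The motif is short and common: 43.8% of all 32851 RefSeq windows of this length held it, as did 62.3% of the windows of tested genes. It was in 66.7% of windows of genes lower by at least 2-fold and in 46.2% of windows of genes higher by at least 2-fold. Among the HIF targets on both lists, 74.3% of windows of genes called lower held it, against 82.1% of windows of those not called lower. A match is a description of letters and not a measured site.

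The levels of HIF targets in the other groups give the scale of these changes. The values in this paragraph are CPM from the scaling of all 15 libraries, as means ± SD of 3. Slc2a1 averaged 47.6 ± 2.3 CPM in the combined group and 47.9 ± 6.6 CPM with doxorubicin only. It averaged 51.1 ± 1.4 CPM with Hif1a siRNA only, 630 ± 15 CPM with NC siRNA and 478 ± 44 CPM in Control. Egln1 gave the same order of size: 34.8 ± 3.0 CPM in the combined group and 36.8 ± 4.4 CPM with doxorubicin only, beside 29.8 ± 1.7 CPM with Hif1a siRNA, 488 ± 10 CPM with NC siRNA and 209 ± 17 CPM in Control. In both genes the doxorubicin group was already near the level of the Hif1a siRNA group. This did not hold for all targets. In single libraries, Gapdh stood at 6768, 6603 and 6985 CPM with doxorubicin only, and at 1791, 1785 and 1766 CPM with Hif1a siRNA. Plod1 stood at 338, 319 and 363 CPM with doxorubicin only, and at 35.6, 35.6 and 39.0 CPM with Hif1a siRNA. Slc2a1 and Gapdh are named after their values were seen. Bnip3 averaged 46.9 ± 11 CPM in the combined group, below the 119 ± 10 CPM with doxorubicin only and the 146 ± 2.2 CPM with Hif1a siRNA. Of the 22 glycolytic targets, 19 had all doxorubicin libraries below all Control libraries, and of the 28 other targets 23 did, beside 40.3% of all genes.

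**Figure D2:**
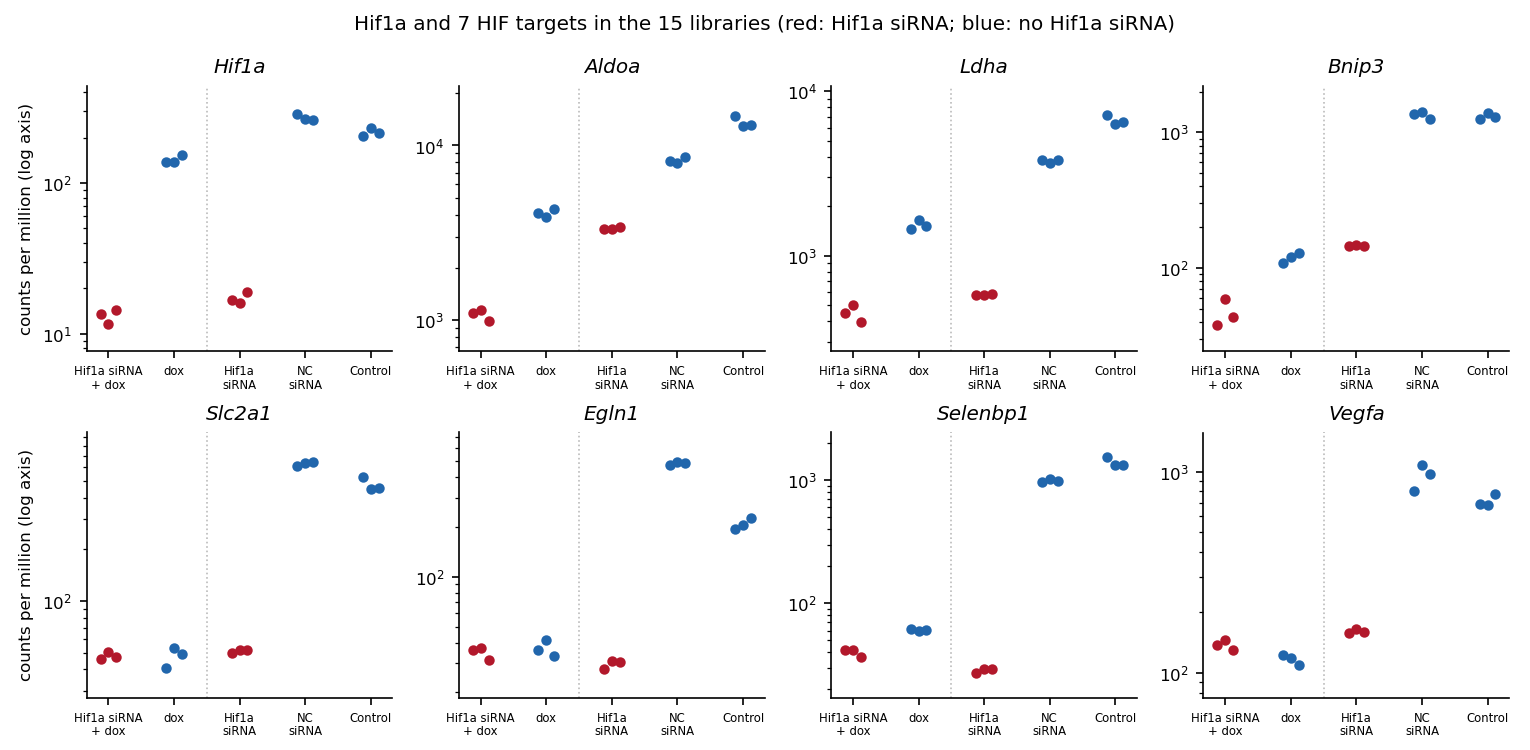
CPM on a log axis (scaling of all 15 libraries) for Hif1a and 7 HIF targets, 1 point per library; from left to right Hif1a siRNA plus doxorubicin, doxorubicin, Hif1a siRNA, NC siRNA and Control, with red for groups given Hif1a siRNA. Aldoa, Ldha and Bnip3 are lower with Hif1a siRNA plus doxorubicin than with doxorubicin, while Slc2a1 and Egln1 overlap between those groups and lie far below NC siRNA and Control.

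The effect of Hif1a siRNA with the drug was tested against its effect without it in 1 edgeR fit of all 15 libraries. The contrast was the combined group minus doxorubicin, less Hif1a siRNA minus Control. Neither doxorubicin nor Control names an siRNA, so each effect holds delivery as well as the loss of Hif1a. Of 12721 genes, 7455 differed (58.6%): 3346 (26.3%) had a positive difference and 4109 (32.3%) a negative one. Among the 22 glycolytic targets, 20 differed upwards and 1 downwards, with a median difference of 1.82 on the log2 scale. Their median log2 fold change was -0.89 with the drug and -2.92 without it against Control. Among the 28 other HIF targets, 25 differed upwards and 2 downwards, and their medians were -0.21 with the drug and -2.64 without it. Aldoa did not pass: its log2 fold change was -1.93 with the drug and -2.01 without it, a difference of 0.08 ± 0.09. With NC siRNA in place of Control its difference was -0.65 ± 0.09 (edgeR adjusted p = 2.89e-06), so the call depends on that choice. For Hif1a itself the difference was 0.22 ± 0.12 against Control (edgeR adjusted p = 0.12) and 0.55 ± 0.12 against NC siRNA (edgeR adjusted p = 3.99e-04). It also passed with RLE scaling (0.30), with DESeq2 (0.30) and without replicate 2 of the combined group (0.29). With NC siRNA as baseline, 20 glycolytic targets differed upwards and 2 downwards, and 26 other targets upwards, beside 27% of all genes upwards and 30.8% downwards.

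Ribosomal protein and respiratory chain transcripts were lower in the combined group. Of 49 cytosolic ribosomal proteins, 30 were lower (61.2%, against 15.4% over all genes) and 19 did not pass (median of the log2 fold changes -0.33). Rpl5, which also binds MDM2, stood at 719, 741 and 767 CPM in the combined libraries, against 1426, 1369 and 1553 CPM in the doxorubicin libraries. Every combined library was below every doxorubicin library, with a log2 fold change of -0.97 ± 0.08 (edgeR adjusted p = 1.19e-07). Rpl35 (-0.76), Rpl3 (-0.71) and Rps25 (-0.64) also fell on the log2 scale, and replicate 3 was the highest combined library in each of these 3 genes. The count of ribosomal proteins lower was 36 without replicate 3 of the combined group, and 20 without replicate 3 of the doxorubicin group. Ribosomal protein genes took 8.85 to 9.61% of reads in the combined libraries and 9.62 to 10.5% in the doxorubicin libraries. Their many processed pseudogenes make single values uncertain.

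Of 25 nuclear-encoded respiratory chain genes, 21 were lower (84.0%, against 15.4% over all genes) and 4 did not pass (median of the log2 fold changes -0.41). Uqcrc2, a core protein of complex III, stood at 146, 150 and 145 CPM in the combined libraries, against 254, 259 and 276 CPM in the doxorubicin libraries. The groups were apart, and the log2 fold change was -0.84 ± 0.08 (edgeR adjusted p = 2.53e-07). Atp5f1c, the gamma subunit of ATP synthase, Ndufv1, a flavoprotein of complex I, and Sdhc, a membrane anchor of complex II, had log2 fold changes of -0.67 each. The mitochondrial genome itself went the other way in part. Of 15 mitochondrially encoded genes, 6 were higher (40.0%, against 16.9% over all genes) and 1 lower (6.67%, against 15.4%). mt-Nd3 stood at 81.0, 70.7 and 91.8 CPM in the combined libraries, against 33.6, 42.8 and 40.3 CPM in the doxorubicin libraries. mt-Cytb, the cytochrome b of complex III, stood at 1318, 958 and 1168 CPM, against 672, 679 and 610 CPM with the drug only. The log2 fold changes were 1.06 ± 0.11 for mt-Nd3 and 0.81 ± 0.10 for mt-Cytb (edgeR adjusted p = 1.68e-06 and 1.37e-05). The count of mitochondrial genes higher moved with the libraries: it was 3 without replicate 1 or replicate 3 of the doxorubicin group, 10 without replicate 2 of the combined group, and 3 with upper-quartile scaling.

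The same nuclear lists were lower after transfection without the drug. The NC siRNA and Control groups share no library with the comparison. There, NC siRNA was lower than Control in 49 of 49 ribosomal proteins and 25 of 25 respiratory chain genes in the 15-library fit, beside 33.7% of all genes. Against NC siRNA, Hif1a siRNA was higher in 16 and lower in 6 ribosomal proteins, and higher in 8 and lower in 9 respiratory chain genes, beside 36.4% and 31.2% of all genes. The part of delivery in the lower values under doxorubicin cannot be told apart.

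**Figure D3:**
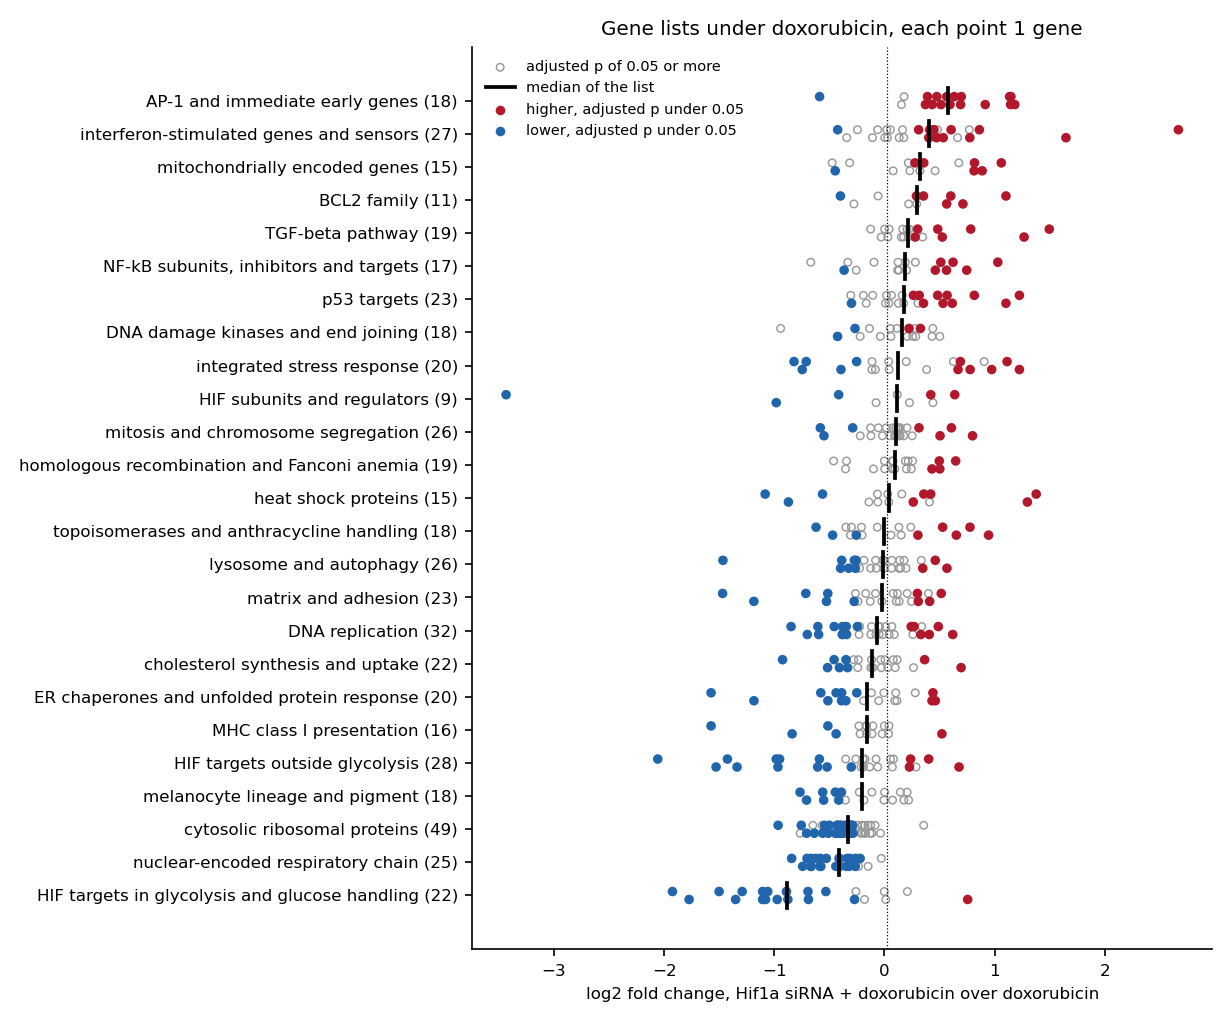
Log2 fold change of Hif1a siRNA plus doxorubicin over doxorubicin for the members of 25 gene lists, with the number tested in brackets; red and blue points passed an adjusted p of 0.05 (higher, lower), open points did not, black bars mark list medians and the dotted line the median of all genes tested. Glycolytic HIF targets have the lowest median (-0.88), followed by respiratory chain and ribosomal protein genes; AP-1 and immediate early genes have the highest (0.58).

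Immediate early genes rose. These are switched on within minutes of growth factor or stress signals and include the AP-1 factors. Of 18 tested of 24 listed, 15 were higher (83.3%, against 16.9% over all genes) and 1 was lower (5.56%, against 15.4%). The other 2 did not pass, and the median log2 fold change of the list was 0.58. The count was 15 higher without replicate 3 of the combined group too. Myc, a transcription factor of growth, stood at 52.0, 40.3 and 42.8 CPM in the combined libraries, against 19.8, 21.5 and 20.2 CPM in the doxorubicin libraries. Spry2, a feedback inhibitor of receptor tyrosine kinase signalling, stood at 31.2, 30.0 and 32.9 CPM, against 13.7, 15.2 and 13.7 CPM with the drug only. The log2 fold changes were 1.14 ± 0.12 for both (edgeR adjusted p = 1.28e-06 for Myc and 1.10e-06 for Spry2). Ier2 rose by 1.18 on the log2 scale.

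Fos, an AP-1 subunit, stood at 126, 118 and 108 CPM in the combined libraries, against 62.8, 77.6 and 76.6 CPM in the doxorubicin libraries, a log2 fold change of 0.70 ± 0.10 (edgeR adjusted p = 3.42e-05). Without the drug it was lower under Hif1a siRNA, with log2 fold changes of -3.0 against NC siRNA and -4.01 against Control. The difference of the effects was 4.70 ± 0.19 (edgeR adjusted p = 8.13e-15). Its paralog Fosb was the member that fell under the drug, by 0.59 on the log2 scale, and is named after its values were seen. Egr1, chosen likewise, stood at 236, 195 and 182 CPM in the combined libraries, against 76.8, 116 and 84.0 CPM in the doxorubicin libraries. Egr1 had a log2 fold change of 1.15 ± 0.16 (edgeR adjusted p = 6.85e-04).

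Part of the p53 programme was higher in the combined group. Of 23 p53 targets tested, 10 were higher (43.5%, against 16.9% over all genes) and 1 was lower (4.35%, against 15.4%). The other 12 did not pass, and the median log2 fold change of the list was 0.17. Sesn2, a sestrin that restrains mTORC1, stood at 28.6, 26.5 and 19.3 CPM in the combined libraries, against 9.75, 11.2 and 10.9 CPM in the doxorubicin libraries. Bbc3, the BH3-only killer PUMA, stood at 16.6, 18.9 and 15.5 CPM, against 7.41, 8.98 and 7.37 CPM with the drug only. The groups were apart in both, with log2 fold changes of 1.22 ± 0.15 for Sesn2 and 1.10 ± 0.15 for Bbc3 (edgeR adjusted p = 9.16e-06 and 2.17e-05). Phlda3, an AKT inhibitor, rose by 0.82 and Plk3, a polo-like kinase, by 0.57 on the log2 scale. The best known targets moved little: Cdkn1a, the p21 inhibitor, had a log2 fold change of 0.32 ± 0.08 and Mdm2, the p53 ligase, of 0.26 ± 0.09. Both passed the test and are named after their values were seen.

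Among BCL2 family genes, 6 of 11 tested were higher (54.5%, against 16.9% over all genes) and 1 was lower (9.09%, against 15.4%). Bcl2l11, the BH3-only protein BIM, stood at 110, 104 and 109 CPM in the combined libraries, against 69.2, 80.6 and 62.7 CPM in the doxorubicin libraries. The groups did not overlap (log2 fold change 0.60 ± 0.10; edgeR adjusted p = 1.22e-04). Bmf (0.56) and Bax (0.35), which also promote cell death, rose on the log2 scale. The survival genes divided: Mcl1 rose by 0.71 and Bcl2 fell by 0.40 on the log2 scale, both named after their values were seen. The call of Bcl2 was lost without replicate 1 or replicate 3 of the doxorubicin group.

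Genes for the drug's target and handling were mixed. Of 18 tested, 5 were higher (27.8%, against 16.9% over all genes) and 3 lower (16.7%, near the 15.4% over all genes). The median change was -0.00 on the log2 scale. The count higher was 3 without replicate 3 of the doxorubicin group, and the count lower was 5 with upper-quartile scaling. Top2b, the topoisomerase II that is also present in non-dividing cells, stood at 79.3, 93.8 and 83.1 CPM in the combined libraries. It stood at 56.2, 56.2 and 50.6 CPM in the doxorubicin libraries. The log2 fold change of Top2b was 0.65 ± 0.09 (edgeR adjusted p = 4.94e-05). Top2a, the isoform of dividing cells, did not pass, at a log2 fold change of 0.13 ± 0.09. Tdp2, which frees trapped topoisomerase II from DNA, rose by 0.78 and the quinone reductase Nqo1 by 0.94 on the log2 scale. Abcc1, the efflux pump MRP1, which exports anthracyclines, stood at 72.3, 65.5 and 67.3 CPM in the combined libraries, against 110, 97.2 and 109 CPM in the doxorubicin libraries, a log2 fold change of -0.62 ± 0.09 (edgeR adjusted p = 3.79e-05).

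Cell cycle and repair genes are given beside the shares over all genes tested, 16.9% higher and 15.4% lower. Of 32 replication genes, 6 were higher (18.8%) and 11 lower (34.4%), and the median change was -0.06 on the log2 scale. Mcm5, a helicase subunit, and Tk1, thymidine kinase, fell by 0.70 and 0.60 on the log2 scale, while Orc1, of the origin recognition complex, rose by 0.62. Leaving out replicate 1 or replicate 3 of the doxorubicin group gave 3 higher and 7 lower, and leaving out replicate 1 of the combined group gave 3 higher and 9 lower. With upper-quartile scaling 3 were higher and 12 lower. Among 26 mitosis genes, 4 were higher (15.4%) and 3 lower (11.5%), shares close to or below those over all genes: the kinesin Cenpe rose by 0.80 and Kif23 by 0.50, while the checkpoint kinase Bub1 fell by 0.58 and Birc5, survivin, by 0.55 on the log2 scale.

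Of 19 homologous recombination genes, 4 were higher (21.1%, near the 16.9% over all genes) and 15 did not pass. These were the nuclease Exo1 (0.65), the helicase Blm (0.50), Rbbp8 (0.50) and Palb2 (0.43), given as log2 fold changes. The call of Rbbp8 was lost without replicate 2 of the doxorubicin group or replicate 1 of the combined group, and that of Palb2 without replicate 3 of the doxorubicin group. Of 18 genes for damage kinases and end joining, 2 were higher (Topbp1 and H2ax) and 2 lower (Prkdc and Xrcc5), or 11.1% each way, below the shares over all genes. The call of each was lost when some single libraries were left out. Without the drug, the replication list behaved otherwise: Hif1a siRNA was higher than Control in 32 of 32 genes, beside 40.2% of all genes. The test of the difference gave 31 of 32 genes with a negative difference, beside 32.3% of all genes. Their list had a median difference of -1.03 on the log2 scale.

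Stress pathways were divided within themselves. Of 20 genes of the integrated stress response tested, 6 were higher (30.0%, against 16.9% over all genes) and 5 lower (25.0%, against 15.4%). Ppp1r15a, the phosphatase subunit that ends the response, stood at 229, 222 and 182 CPM in the combined libraries, against 99.6, 115 and 108 CPM in the doxorubicin libraries. Ppp1r15a had a log2 fold change of 0.97 ± 0.09 (edgeR adjusted p = 5.61e-07). The transcription factors Ddit3 (1.11) and Atf4 (0.78), named after their values were seen, rose on the log2 scale. The lower members included enzymes that make serine and one-carbon units: Mthfd2, a mitochondrial folate enzyme, stood at 164, 154 and 159 CPM in the combined libraries, against 288, 265 and 289 CPM in the doxorubicin libraries. The log2 fold change of Mthfd2 was -0.82 ± 0.08, and that of Psat1 was -0.71 ± 0.09.

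Chaperones of the endoplasmic reticulum were lower in 9 of 20 cases (45.0%, against 15.4% over all genes) and higher in 3 (15.0%, against 16.9%). Without replicate 1 of the doxorubicin group, 1 was higher. Pdia3, a disulfide isomerase that also loads MHC class I, stood at 591, 519 and 504 CPM in the combined libraries, against 1604, 1510 and 1695 CPM in the doxorubicin libraries. The groups were far apart, with a log2 fold change of -1.57 ± 0.09 (edgeR adjusted p = 5.03e-10). Pdia4 (-1.19), Dnajb11 (-0.58) and Canx (-0.51) also fell on the log2 scale. Of 15 heat shock genes, 5 were higher (33.3%, against 16.9% over all genes) and 3 lower (20.0%, near the 15.4% over all genes). The count higher was 2 without replicate 1 of either group, and 3 without replicate 2 of either group or replicate 3 of the doxorubicin group. The mitochondrial chaperonins Hspe1 (-1.08) and Hspd1 (-0.56) and the cytosolic Hsp90ab1 (-0.87) were those that fell. Hspa1a, the inducible HSP70, stood at 42.1, 30.4 and 28.9 CPM in the combined libraries, against 10.8, 17.6 and 12.8 CPM in the doxorubicin libraries, a log2 fold change of 1.30 ± 0.19. Its near-identical neighbour Hspa1b can share its reads, so the split between them is uncertain.

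Interferon-stimulated genes and nucleic acid sensors were higher in 11 of 27 cases tested (40.7%, against 16.9% over all genes) and lower in 1 (3.70%, against 15.4%). The median log2 fold change was 0.40, or 0.17 without replicate 2 of the combined group. Cgas, the sensor of cytosolic DNA, stood at 22.8, 18.9 and 22.6 CPM in the combined libraries, against 10.5, 12.4 and 12.4 CPM in the doxorubicin libraries. Cgas had a log2 fold change of 0.86 ± 0.14 (edgeR adjusted p = 1.14e-04). Ifit1 rose at a low level, to 3.71, 3.36 and 3.25 CPM, against 0.767, 1.02 and 1.50 CPM with the drug only. Adar, which edits double-stranded RNA, rose by 0.41 on the log2 scale. Cxcl10 did not pass: it stood at 5.79, 6.53 and 5.38 CPM in the combined libraries, against 3.83, 4.41 and 4.46 CPM in the doxorubicin libraries. Without the drug it averaged 87.8 ± 2.0 CPM with Hif1a siRNA, 3.87 ± 0.42 CPM with NC siRNA and 5.37 ± 0.87 CPM in Control (15-library scaling, SD, n = 3 each), and the difference of the log2 effects was -3.55 ± 0.18 (edgeR adjusted p = 1.14e-13).

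NF-kB genes were higher in 6 of 17 cases tested (35.3%, against 16.9% over all genes) and lower in 1 (5.88%, against 15.4%). Nfkb1, the p105 precursor, stood at 37.6, 36.1 and 33.7 CPM in the combined libraries, against 15.7, 18.4 and 18.5 CPM in the doxorubicin libraries, a log2 fold change of 1.03 ± 0.12. Birc2 (0.75), Tnfaip3 (0.62) and Chuk (0.46) also rose on the log2 scale. MHC class I presentation genes were lower in 4 of 16 cases (25.0%, against 15.4% over all genes) and higher in 1 (6.25%, against 16.9%). The higher member was Cd274, which encodes PD-L1 (0.52), and its call was lost without replicate 1 of the combined group. The lower members were Pdia3, Erap1 (-0.84), Canx and Calr (-0.44), of which 3 also act as general chaperones of the endoplasmic reticulum. The class I heavy chain H2-K1 did not pass: it was at 507, 528 and 438 CPM in the combined libraries and at 548, 589 and 581 CPM in the doxorubicin libraries.

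Pigment and lineage genes were lower in 7 of 18 cases (38.9%, against 15.4% over all genes), and 11 did not pass. Slc45a2, a melanosome transporter, stood at 232, 188 and 189 CPM in the combined libraries, against 319, 368 and 349 CPM in the doxorubicin libraries. Tyrp1, an enzyme of melanin synthesis, stood at 10358, 7727 and 8977 CPM, against 12874, 12701 and 14350 CPM with the drug only. Their log2 fold changes were -0.77 ± 0.09 for Slc45a2 and -0.56 ± 0.11 for Tyrp1 (edgeR adjusted p = 7.44e-06 and 6.25e-04). Mlana (-0.45) and Slc24a5 (-0.42) also fell on the log2 scale. The lineage regulators Mitf (0.22), Sox10 (0.07) and Pax3 (-0.01) did not pass, and are named after their values were seen.

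TGF-beta pathway genes were higher in 7 of 19 cases (36.8%, against 16.9% over all genes), and 12 did not pass. Id1, an inhibitor of basic helix-loop-helix factors, stood at 101, 84.3 and 71.9 CPM in the combined libraries, against 24.8, 38.6 and 27.8 CPM in the doxorubicin libraries. Its log2 fold change was 1.50 ± 0.17 (edgeR adjusted p = 1.19e-04), and that of its relative Id3 was 1.27 ± 0.16. The receptor Tgfbr2 (0.78) and the inhibitory Smad7 (0.52) rose too. The count was 4 when replicate 1 or replicate 3 of the doxorubicin group, or replicate 1 of the combined group, was left out.

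Of 23 matrix and adhesion genes, 6 were lower (26.1%, against 15.4% over all genes) and 4 higher (17.4%, near the 16.9% over all genes). The count higher was 2 without replicate 3 of the doxorubicin group or replicate 1 of the combined group. Loxl2, a lysyl oxidase that crosslinks collagen, stood at 21.7, 16.3 and 21.7 CPM in the combined libraries, against 53.9, 53.9 and 57.2 CPM in the doxorubicin libraries. Timp2, an inhibitor of metalloproteinases, stood at 205, 211 and 197 CPM, against 460, 438 and 496 CPM with the drug only. Their log2 fold changes were -1.47 ± 0.12 for Loxl2 and -1.19 ± 0.08 for Timp2 (edgeR adjusted p = 5.23e-08 and 5.99e-09). Timp3 fell by 0.71 and the laminin chain Lama4 rose by 0.52 on the log2 scale.

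Of 22 cholesterol genes, 6 were lower (27.3%, against 15.4% over all genes) and 2 higher (9.09%, against 16.9%). The count higher was 1 without replicate 1 or 3 of the doxorubicin group or replicate 2 of the combined group. Hsd17b7, a reductase of late sterol synthesis, fell by 0.93 on the log2 scale. Of 26 lysosome and autophagy genes, 7 were lower (26.9%, against 15.4% over all genes) and 3 higher (11.5%, against 16.9%). Atp6v0d1, a subunit of the proton pump, stood at 74.8, 82.4 and 64.7 CPM in the combined libraries, against 208, 202 and 204 CPM in the doxorubicin libraries, a log2 fold change of -1.47 ± 0.09. The other members of that list changed by less: Sqstm1, the autophagy receptor p62, rose by 0.46 and Map1lc3b fell by 0.40 on the log2 scale. The count of lower members was 4 without replicate 1 of the doxorubicin group or replicate 2 of the combined group, and 3 without replicate 3 of the doxorubicin group.

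Small and non-coding transcripts made up much of the large decreases. Of the 248 genes lower by at least 2-fold, 87 were pseudogenes (35.1%) and 25 were snoRNA genes (10.1%), against 6.93% and 0.341% of all genes tested. Of 44 snoRNA genes tested, 26 were lower, beside 15.4% of all genes tested. The median over all 44 was -1.30 on the log2 scale. These RNAs guide modification of ribosomal RNA and mostly lie in introns of host genes. In the doxorubicin libraries their median level was 1.21 CPM. Snora65 stood at 2.95, 2.88 and 3.44 CPM in the combined libraries, against 10.6, 8.32 and 10.5 CPM in the doxorubicin libraries. Of 896 pseudogenes, 203 were lower and 23 higher, beside 15.4% and 16.9% of all genes tested. Without replicate 3 of the combined group, 338 of 816 pseudogenes and 27 of 47 snoRNA genes were lower, beside 17.1% of all genes. Pseudogene reads can come from their parent genes, so these counts are uncertain. Protein-coding genes were also binned into 4 equal classes of transcript length: in the shortest class 21.8% were lower and 11.4% higher, and in the longest class 11.1% were lower and 24.3% higher. Whether length has a part in the lists of short genes, such as ribosomal proteins, was not tested.

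Genes lower in the combined group were often lower with Hif1a siRNA, and with NC siRNA, in the groups without the drug. Of 237 genes that were lower by at least 2-fold and were listed for all groups, 144 were lower in Hif1a siRNA than in NC siRNA (60.8%, beside 31.2% of all genes). Of the same 237, 138 were lower in NC siRNA than in Control (58.2%, beside 33.7%). Against Control, Hif1a siRNA was lower in 180 of the 237 (75.9%, beside 34.1% of the 12619 genes in both fits). Of 92 genes higher by at least 2-fold, 43 were higher in Hif1a siRNA than in NC siRNA (46.7%, beside 36.4%) and 55 higher in NC siRNA than in Control (59.8%, beside 33.1%). Against Control, Hif1a siRNA was higher in 65 of the 92 (70.7%, beside 40.4% of the 12619 genes). These comparisons share no library with the combined and doxorubicin groups. Across 12619 genes, Pearson's r between the log2 fold changes was 0.43 with Hif1a siRNA over Control. It was 0.23 with Hif1a siRNA over NC siRNA and 0.32 with NC siRNA over Control. Genes are not independent replicates.

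**Figure D4:**
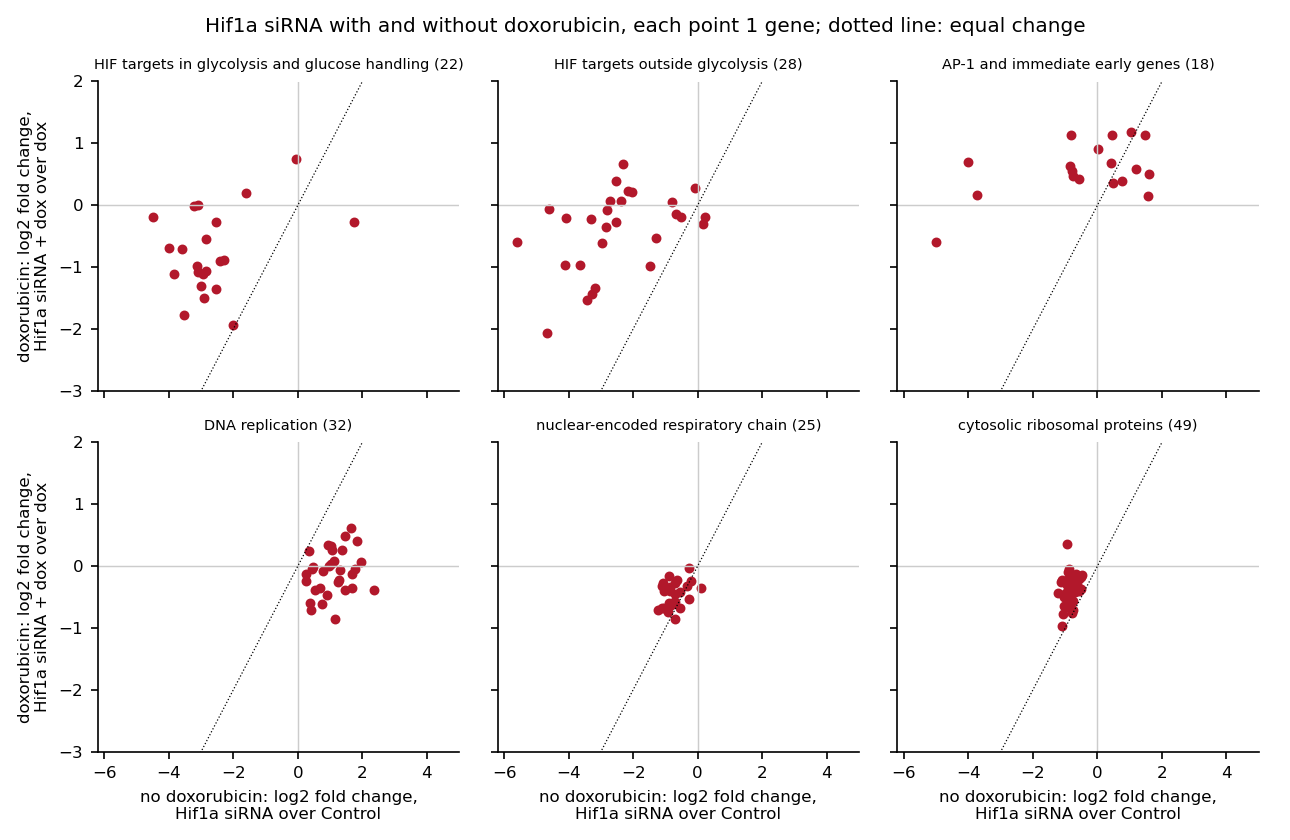
Log2 fold change of Hif1a siRNA plus doxorubicin over doxorubicin (vertical) against that of Hif1a siRNA over Control (horizontal), both from the 15-library fit, for 6 gene lists with 1 point per gene; the dotted line marks equal changes and the axes have different scales. Most HIF targets lie left of the dotted line, with median changes of -0.89 (glycolysis) and -0.21 (other) with the drug, against -2.92 and -2.64 without it. The 32 replication genes lie on both sides of zero with the drug and right of zero without it, and ribosomal protein and respiratory chain genes lie below zero on both axes, apart from 1 gene in each list.

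The 12 genes named for the largest differences between drug and no drug had log2 fold changes of -1.67 (Snora65) to 0.69 (Fos) with the drug, in the 15-library fit. Selenbp1, a methanethiol oxidase, stood at 40.9, 41.2 and 35.8 CPM in the combined libraries, against 60.0, 58.4 and 59.1 CPM in the doxorubicin libraries. Its log2 fold change was -0.59 ± 0.10 with the drug and -5.60 without it against Control, a difference of 5.01 ± 0.10 (edgeR adjusted p = 3.06e-20). Coro7 and Crtap, among the 12 largest decreases, had negative differences: -2.10 ± 0.13 for Coro7 and -2.78 ± 0.16 for Crtap (edgeR adjusted p = 3.20e-12 and 1.21e-12). Crtap averaged 11.1 ± 1.1 CPM in the combined group and 88.0 ± 6.2 CPM with doxorubicin only, beside 8.54 ± 0.58 CPM with Hif1a siRNA, 23.6 ± 0.78 CPM with NC siRNA and 9.82 ± 1.6 CPM in Control (15-library scaling, SD, n = 3 each). The doxorubicin group held the highest level of the 5.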

How the data were processed

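Libraries were made from total RNA with a stranded, mRNA-selecting kit, per the labels' protocols. Build mm10 is named in the submitters' processing notes, as are the aligners HISAT2 2.1.0 and Bowtie2 2.3.4.1, StringTie 2.1.3b, Trimmomatic 0.38 and FastQC 0.11.7, without their roles. The deposited values are whole-number read counts per gene, which the authors did not normalize; the counting tool and the use of strand are not given in the sources used here. The gene sets of the tables differ: 48 genes were listed for the combined group only and 55 for doxorubicin only, at 44 reads or fewer.

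Counts of the 6 libraries were filtered with filterByExpr, which removed 104 of 13025 genes, scaled by TMM and tested with edgeR 4.0.16 (quasi-likelihood, robust, two-sided, R 4.3.3) with Benjamini-Hochberg adjustment over all genes tested. SE is the log2 fold change divided by the root of F. A fit of all 15 libraries, over 12721 genes listed for all groups, gave the other contrasts and the difference of effects. DESeq2 1.42.0 and limma 3.58.1 were alternatives. The procedure was tested on simulated data, in which 67 genes each were changed by 1.5-fold and 2-fold, and 66 by 4-fold. The 6-library test recovered 56.7% of 1.5-fold, 85.1% of 2-fold and 98.5% of 4-fold changes, and 9.09% of its calls were unchanged genes. The test of the difference recovered 32.8%, 67.2% and 95.5%, and 7.80% of its calls were unchanged genes. Far more genes were called in the data than were changed in the simulation, so these rates may not hold for the reported calls.

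The comparison, the 25 gene lists and the rules were chosen with earlier results of these data known. Named genes are Hif1a, the HIF regulators, the 12 largest called changes each way with at least 5 CPM and no overlap, the 4 called members of each list with the smallest adjusted p, and the 6 largest differences each way; others were chosen after their values were seen. A few genes under this rule are not reported here. Symbols and coordinates missing from the files came from RefSeq (GRCm38.p6), which named 1491 gene IDs. Libraries of a group differed beyond sampling noise, so each counts once. Replicates are of 1 cell line, so a p-value reflects the spread among libraries of that line.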

Additional observations from a re-analysis of the deposited data

Results flagged for a closer look

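For 26 named genes the effect of Hif1a siRNA differed with and without doxorubicin, by edgeR's test of the difference in the 15-library fit. With the drug the effect was the combined group over doxorubicin, and without it Hif1a siRNA over Control. Delivery is part of both effects. The values are log2 differences. They were positive for Ltbp1 (6.79), Proser2 (6.16), Selenbp2 (5.43), Selenbp1 (5.01), Tph1 (4.96), Fos (4.70), Mir9-2hg (3.12), Car9 (2.60) and Id1 (1.23). Ltbp1 in the Hif1a siRNA libraries rests on 2 or 3 reads each, so its fitted value depends on the prior count, and Tph1 and Proser2 rest on 4 to 15 reads there. The direction for Id1 turned with the baseline: with NC siRNA in place of Control its difference was -1.04 (edgeR adjusted p = 4.95e-03).

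They were negative for Cmtr2 (-3.67), Cxcl10 (-3.55), Pprc1 (-3.38), Pigw (-3.25), Gemin4 (-3.21), Snora65 (-3.19), Crtap (-2.78), Coro7 (-2.10), Pigq (-1.70), Trib1 (-1.45), Cd302 (-1.15), Axin2 (-1.03), G6pdx (-1.0), Fndc3c1 (-0.99), Prickle1 (-0.96), Slc25a5 (-0.76) and Ppp1r10 (-0.64). Among these, Coro7, Pigq, Cd302, G6pdx, Fndc3c1 and Slc25a5 had negative log2 fold changes both with the drug and without it against Control, and more negative ones with it. Trib1, Axin2, Prickle1 and Ppp1r10 had positive ones in both, smaller with the drug than without it against Control. With NC siRNA as baseline none of these 4 passed: the differences were 0.11 for Trib1, 0.30 for Axin2, 0.17 for Prickle1 and -0.28 for Ppp1r10 (edgeR adjusted p from 0.16 to 0.73). The other genes of both paragraphs kept direction and call with that baseline. The genes were named partly by the size of this difference.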

How the results depend on the processing

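Hif1a kept its direction and call under every alternative run, at log2 fold changes of -3.50 to -3.36. The count of 4180 calls was 2513 (1283 higher, 1230 lower) at an adjusted p of 0.01, and 2858 to 4328 when single libraries were left out. At 2-fold or more, those leave-one-out counts ran from 85 to 168 higher (102 with all) and from 203 to 486 lower (248 with all); the highest came without doxorubicin replicate 2 and without combined replicate 3. With protein-coding nuclear genes only, chosen after seeing the data, 144 were lower by at least 2-fold; that fit also changed the scaling. The cause was not tested for any of these moves. Upper-quartile scaling gave 1823 higher and 2408 lower. The difference of effects kept its counts within 1.5 times under every alternative run, NC siRNA as baseline included (3433 positive, 3917 negative). For single genes of the comparison itself, 1989 of 2048 values kept their call, 56 lost it (10 genes), 3 gained it (Hif1an) and 0 reversed; list medians moved by more than the spread of the combined libraries in 33 of 399 values, across 13 of 25 lists. Named differences rest on the baseline more than those counts show: with NC siRNA, 24 of 34 kept direction and call. Those that turned were Id1 (-1.04), Aldoa (-0.65), Tepsin (1.29), Mxra8 (0.35), Trib1 (0.11), Axin2 (0.30) and Prickle1 (0.17), of which the last 3 did not pass; Ppp1r10 lost its call, and Hif1a and Klhl18 gained one. The replicate block gave 4198 calls, and same-numbered libraries deviated together weakly (correlations of -0.03, 0.05 and 0.05), so the numbers were not taken as pairs. The mitochondrially encoded list has no value with nuclear genes only. Low-count snoRNA genes and pseudogenes limit the counts at 2-fold or more.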
